A study of Bos taurus with 2 samples.

Results

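Reads of 2 beta-type globin genes were examined in the longissimus muscle of Qinchuan beef cattle. The genes were chosen by identifier: ENSBTAG00000037644, a candidate for the fetal beta-type globin gene, and ENSBTAG00000038748, the adult beta globin gene HBB. They are 2 of the 16174 genes that had reads at one stage or the other, and both were read in both libraries. The choice was made with their values known. The fetal candidate was picked because its reads were nearly absent from the adult library, so its difference between stages is a description and carries no test, and the same is done for HBB. Both gene models, 679 nt for the fetal candidate and 614 nt for HBB, lie inside the required length of 400 to 900 nt and neither is near its bounds.

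One library, Emb135, came from animals before birth, 135 days after insemination. The other, 30M, came from adults 30 months after birth. Each was made from RNA of 3 animals pooled before library construction, so there is 1 library per stage, and differences between animals or preparations cannot be told apart from the stage. The libraries held 17736812 reads (Emb135) and 19970007 reads (30M) placed uniquely. The deposited tables hold identifiers and no gene names, so the names used here come from the choice of the genes, and the muscle, red cell and other blood markers that would test the tissue label or the blood content were not analysed here.

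Haemoglobin, the oxygen carrier of red cells, is built from alpha-type and beta-type chains. Mammals keep their beta-type genes in a cluster and use different members in turn during life: embryonic chains first, and in cattle a fetal chain that gives way to the adult chain encoded by HBB around birth. RefSeq's annotation of the cattle assembly ARS-UCD2.0 lists the named members along the chromosome in the order HBE1, HBE4, HBB, HBE2 and HBG. Young red cells are rich in globin mRNA, whereas mature mammalian red cells have no nucleus and lose their RNA. Skeletal muscle fibres make the related oxygen store myoglobin, while the blood in its vessels carries haemoglobin. Beta-type genes resemble each other in sequence, and only uniquely placed reads were counted. How reads were divided between such copies is therefore uncertain.

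The mRNA of these 2 beta-type genes was abundant in the Emb135 library and almost absent from the adult one. The fetal candidate held nearly all of the reads of the pair in Emb135. The other beta-type genes of the cluster were not analysed here. HBB gave a minor part of the reads of the pair in Emb135, though its RPKM there lay above 88.6% of the detected genes. HBB was lower in 30M, so these libraries showed no rise of the adult gene. In 30M the 2 genes had 12 and 13 reads, too few to resolve a difference between them.

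The fetal candidate had 91872 reads in Emb135 and 12 reads in 30M. Its level per length, as the RPKM, which scales the reads to the length of the model and the depth of the library, was 7628 in Emb135 (95% counting interval 7579 to 7678) and 0.885 in 30M (0.457 to 1.55). Intervals are exact Poisson or binomial intervals that treat reads as independent, and are too narrow if both ends of fragments were counted. They cover counting error only, and none measures variation between animals. The gene was 7th of 15522 detected genes by RPKM in Emb135 and 14th by reads. In 30M it was 11463rd of 14853 by RPKM. It took 0.518% of all Emb135 reads (interval 0.515 to 0.521%), which is 1 read in every 193, and 6.01e-05% of the 30M reads.

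HBB had 468 reads in Emb135 and 13 reads in 30M. Its RPKM was 43.0 in Emb135 (95% counting interval 39.2 to 47.0) and 1.06 in 30M (0.565 to 1.81). By RPKM it was 1766th in Emb135, above 88.6% of the detected genes, and 11189th in 30M, above 24.7% of them. Its share was 0.00264% of the Emb135 library and 6.51e-05% of the 30M library. The HBB reads of Emb135 equal 0.509% of the reads of the fetal candidate there, so reads of the candidate placed on HBB at that rate would amount to all of them. At the same rate the 12 candidate reads of 30M would give 0.0611 reads. The rate was taken from the Emb135 counts themselves and is no estimate of misplacement in either library. Such misplacement was not tested, and the values of HBB and the ratios that use them carry this uncertainty.

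On the RPKM scale the 4 levels fell in the order fetal candidate in Emb135, HBB in Emb135, HBB in 30M and fetal candidate in 30M. The counting intervals of the 2 Emb135 levels overlapped neither each other nor those of 30M. The intervals of the 2 levels in 30M overlapped widely, and their order was not resolved at this depth. Both 30M counts were above a floor of 3 reads, which corresponds to an RPKM of 0.221 for the fetal candidate and 0.245 for HBB.

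**Figure D1:**
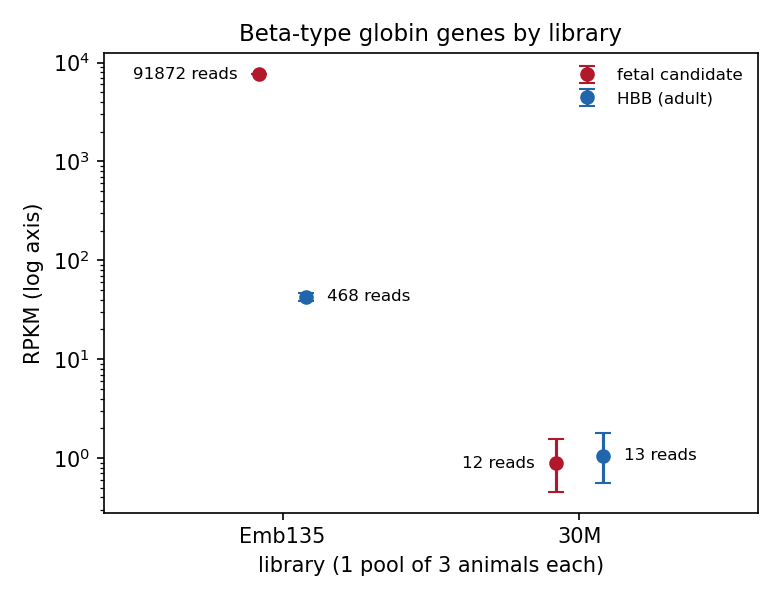
RPKM (log axis) of the fetal candidate (red) and HBB (blue) in the 2 libraries, with exact 95% counting intervals as bars and the read count beside each point. The Emb135 points lie at 7628 and 43.0, and the 30M points lie at 0.885 and 1.06 with overlapping intervals.

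Both genes were lower in 30M. The share of reads of the fetal candidate was 8620-fold higher in Emb135 (95% counting interval 4934 to 16683). On the log2(RPKM + 0.5) scale, where the pseudocount of 0.5 shrinks the ratios of low values, its ratio of 30M over Emb135 was -12.43. The share of HBB was 40.5-fold higher in Emb135 (interval 23.5 to 76.7), with a log2 ratio of -4.80 on the same scale. In these bulk samples fewer cells of a type and less RNA per cell cannot be told apart. Other markers of red cells were not analysed here, and the part that the blood content of the tissue has in these ratios was not tested.

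The ratios stand against a library-wide background. A gene was called lower in 30M where the ratio was at least 2-fold on that scale, the higher library reached an RPKM of 1, and the counting interval of the ratio did not include equality. By this rule of size 4167 of 12763 genes, 32.6%, were lower in 30M and 13.0% were higher. Both globin genes were among the lower ones, and for the fetal candidate the choice of the gene fixed this direction in advance. Among the 1384 gene models of 400 to 900 nt that reached the minimum, 38.7% were lower. The median log2 ratio was -0.53 over all 12763 genes and -0.60 over those of like length. At 16-fold or more, where both globin genes also lay, 1.38% of genes were lower.

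The fetal candidate had the lowest ratio of the 12763 genes, and HBB was 85th from the lowest. The low place of the candidate follows in part from its choice as nearly absent from 30M. The 30M values were also rescaled by a factor of 1.40, which sets the median ratio of genes that reached an RPKM of 1 at both stages to equality. Then 21.0% of genes were lower and 20.0% higher at 2-fold, and 1.11% were lower at 16-fold. The ratios then were -12.10 for the fetal candidate and -4.46 for HBB.

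**Figure D2:**
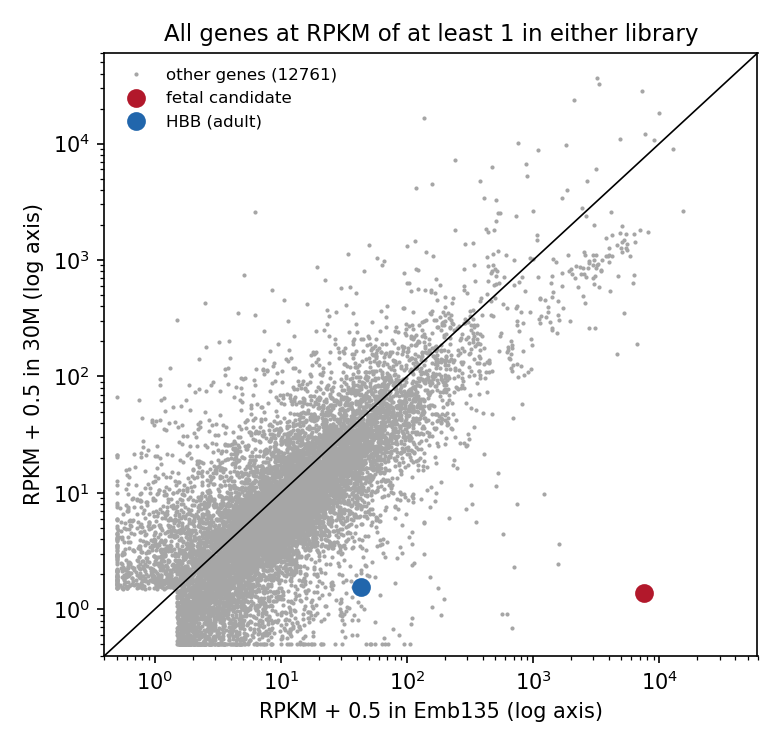
RPKM + 0.5 in Emb135 (horizontal, log axis) against 30M (vertical, log axis) for genes that reached an RPKM of 1 at one stage or both, with the line of equality. The fetal candidate (red) lies at the lower right, apart from the 12761 other genes, and HBB (blue) lies at the lower edge of the cloud.

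Most genes at a like level in Emb135 lay higher in 30M than the globin genes did. Within 25% of the RPKM of the fetal candidate there were 10 other genes, and their RPKM in 30M ran from 190.8 to 28393 with a median of 1717, against 0.885 for the fetal candidate. Among 119 genes whose Emb135 RPKM was 1000 or more, the fetal candidate was the 1 gene below an RPKM of 1 in 30M. The next lowest was at 1.97, and the median was 897.3. The candidate was chosen for its near absence from 30M, so its low place among these genes restates that choice. Within 25% of the Emb135 level of HBB there were 797 other genes. Their median RPKM in 30M was 24.1, with quartiles of 14.5 and 41.2, and 14 of the 797 were at or below the 1.06 of HBB.

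Seen from the adult library, both genes had high levels in Emb135 beside most genes of a like adult level. Of the 655 other genes within 25% of the RPKM of the fetal candidate in 30M, the highest in Emb135 reached an RPKM of 196.1. The candidate itself was at 7628, and its contrast between stages was known when it was chosen. Of the 729 genes around the 30M level of HBB, the median in Emb135 was 2.09, and 4 were at or above its 43.0.

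The balance of the 2 genes also differed between the libraries. In Emb135 the fetal candidate gave 99.49% of the reads of the pair (exact 95% binomial interval 99.45 to 99.54%), or 196.3 reads for each read of HBB. In 30M it gave 48.0% of 25 reads (interval 27.8 to 68.7%), or 0.923 reads for each read of HBB. Corrected for the length of the gene models, the fetal share was 99.44% of the pair's RPKM in Emb135 and 45.5% in 30M. The fetal-to-adult ratio of reads was thus 212.7-fold higher in Emb135 (exact conditional 95% interval 88.8 to 512.3). A ratio of 2 genes within a library does not move with depth or scaling. The fall in the fetal share came with lower levels of both genes and not with a higher level of HBB, and the 30M share rests on few reads.

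Together the pair took 0.521% of all Emb135 reads (interval 0.517 to 0.524%) and 0.000125% of the 30M reads (interval 8.1e-05 to 0.000185%). The combined share was 4159-fold higher in Emb135 (95% counting interval 2817 to 6426). Weighted by length, the pair made up 1.02% of the summed RPKM of Emb135. Setting these reads aside would raise the RPKM of every other Emb135 gene by a factor of 1.005.

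Coverage, taken as the part of the gene model that any read reached, was not used to choose the genes. The fetal candidate was covered over 98.2% of its model in Emb135, with 12 nt of 679 unread at a mean depth of 12177 reads per base for reads of 90 nt. All 6 other genes of 400 to 900 nt with reads within 1.5 times of its count had higher coverage, between 98.8 and 99.9%, while within 2 times of its count 2 of 18 genes had lower coverage. HBB was covered over 95.8% in Emb135, with 26 nt of 614 unread at a mean depth of 68.6. Of 213 genes of like length and reads, 66 had lower coverage, and their median was 98.1%. Both models were thus read almost from end to end in the Emb135 library.

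In 30M the 12 reads of the fetal candidate covered 67.0% of its model, or 455 nt. Reads with independent random starts, each place being equally likely, would cover 78.2% on average. The covered length needs at least 6 reads at separate places. Among 140 genes of like length and reads the median coverage was 61.7% and the upper quartile 74.4%, both below that average. Of these genes, 79 had lower coverage than the candidate.

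The 13 reads of HBB in 30M covered 48.9% of its model, or 300 nt, which needs at least 4 reads at separate places. Reads with such random starts would cover 82.7% on average. Among 123 genes of like length and reads the median coverage was 66.4% and the upper quartile 77.4%, both below that average. Of these genes, 28 had lower coverage than HBB. HBB thus had 1 read more than the fetal candidate in 30M and a shorter model, yet 155 nt less of it was covered. Both values lay inside the range of like genes, 10.5 to 93.9%. Where along the models these reads fell is not given in the tables.

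**Figure D3:**
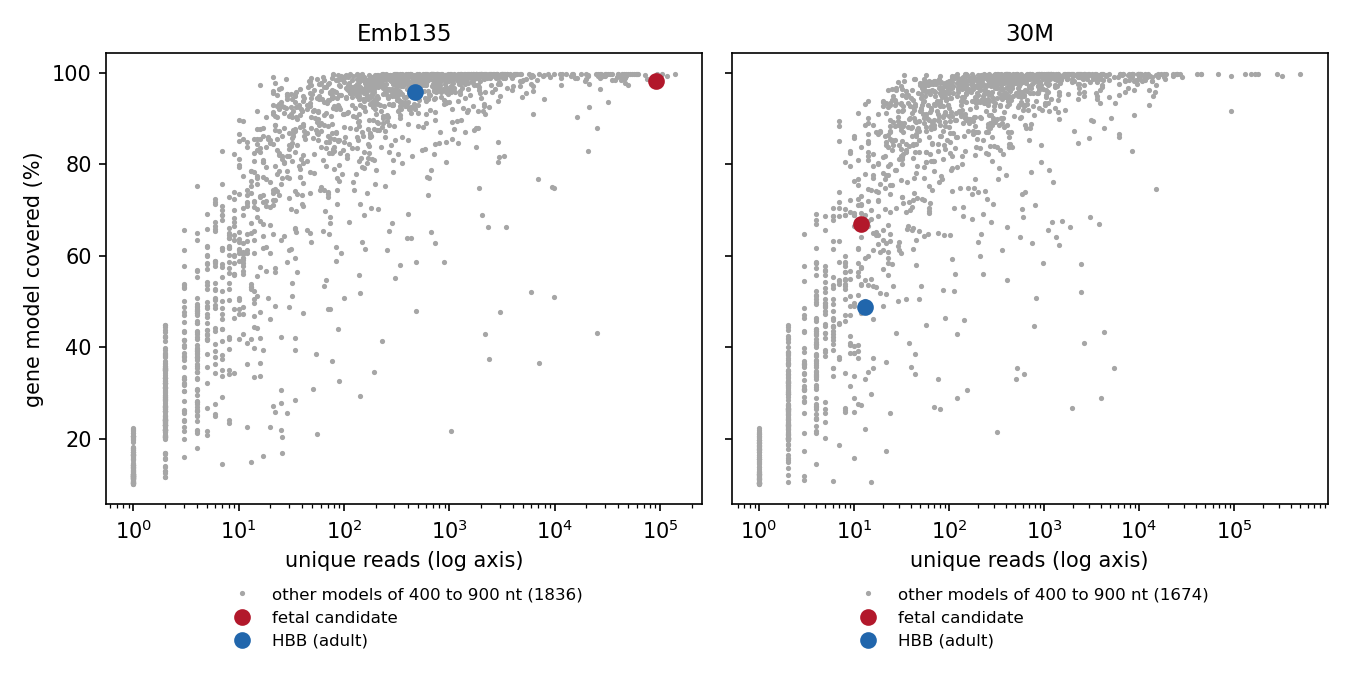
Percentage of the gene model covered (vertical) against unique reads (horizontal, log axis) for gene models of 400 to 900 nt in Emb135 (left) and 30M (right). In Emb135 the fetal candidate (red, 98.2%) and HBB (blue, 95.8%) lie near full coverage, and in 30M they lie among genes with few reads at 67.0% and 48.9%.

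The genes with the most similar ratios were sought among the 6726 genes whose higher RPKM was 10 or more, by the difference of their log2 ratio over the 2 libraries. No gene lay within 1 log2 unit of the fetal candidate. The near absence of the candidate from 30M led to its choice, so this distance in part restates that choice. The nearest had a model of 5934 nt and a log2 ratio of -9.93, with 71043 reads in Emb135 and 23 in 30M. The next was a short model of 612 nt with 6718 reads in Emb135 and 5 in 30M, at -9.41. The third had a model of 763 nt with 21335 reads in Emb135 and 30 in 30M, at -9.32. The fourth and the fifth, with models of 4954 and 1314 nt, lay at -9.28 and -8.78.

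HBB had many more genes near it. Within 1 log2 unit of its ratio lay 163 genes, and its 5 nearest differed from it by at most 0.044. Their models ran from 298 to 7059 nt, their RPKM in Emb135 from 13.6 to 323.3, and their RPKM in 30M from 0 to 11.2. With 2 libraries, likeness of a ratio is a weak measure: these genes share a ratio between the same 2 pools and nothing further was measured. They are given without identifiers because no name could be attached to them.

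**Figure D4:**
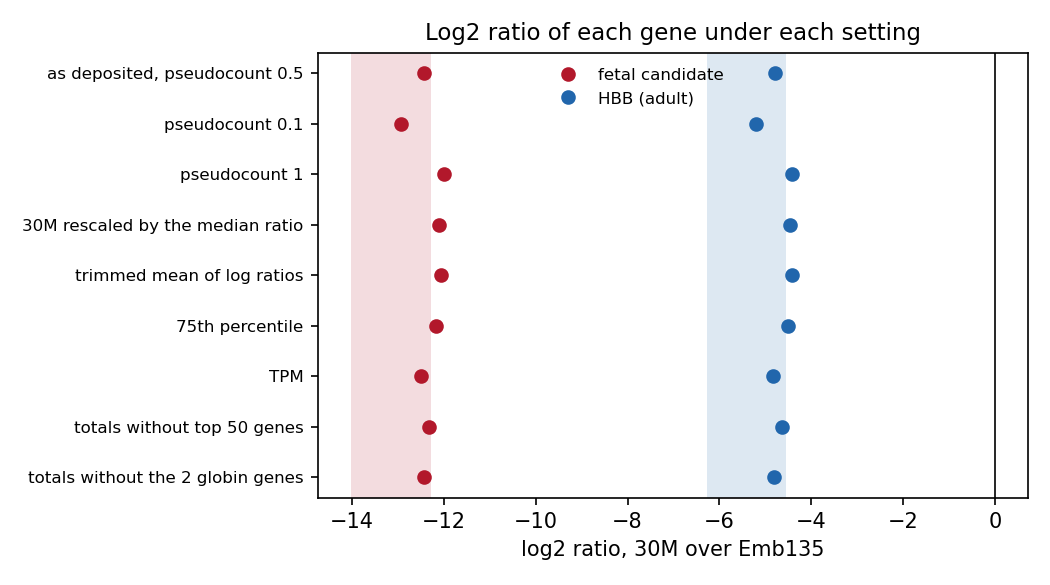
Log2 ratio of 30M over Emb135 (horizontal) of the fetal candidate (red) and HBB (blue) under each setting listed on the vertical axis. The shaded bands are the exact 95% counting intervals of the ratios of reads, -14.03 to -12.27 for the fetal candidate and -6.26 to -4.55 for HBB, and each point lies below 0.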

How the data were processed

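Polyadenylated RNA of longissimus muscle was sequenced as 1 pooled library per stage. Per the file headers, the authors deposited counts of uniquely assigned reads per gene, the model length, coverage and RPKM. The deposited counts add up to the total in each header. The authors' coverage signal was read as a percentage of the model, although 1 gene per library exceeds 100. The RPKM was recomputed from counts, lengths and totals with a relative error of at most 2.2e-14. The read length of 90 nt follows from genes with 1 read. The aligner, build and annotation used are not given here. Among genes with few reads in Emb135, counts of 2 were frequent beside counts of 1. Such a pattern can arise where both ends of a fragment are counted separately. Whether this was done was not tested. If it was, the intervals are too narrow.

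The genes and lists were chosen with earlier results of these data known. The 8 lists fixed by symbol (other globins, heme synthesis and iron, globin switching, erythroid, leukocyte, platelet, endothelium and skeletal muscle) were not analysed here, since 0 of the 37063 genes of the reference table carry an Ensembl identifier. The naming rule named both globin genes in every case and asked for the 5 genes with the nearest ratio. With 1 library per stage no test between stages was made and p-values are not given. Clopper-Pearson, Poisson and conditional odds-ratio intervals (95%) were computed with Python 3.11.15 and SciPy 1.17.1. The calling rule was run on simulated counts with counting error only, and the coverage expectation on reads placed by its own random starts. These simulations check the code. They held no variation between animals and no linked read ends, so they do not bear on those limits. Alternatives were other pseudocounts, minimum values, a larger fold, scalings and length weighting.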

Additional observations from a re-analysis of the deposited data

How the results depend on the processing

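Of 44 alternative values, 36 came from settings listed in the plan and 8 were chosen after seeing the data (other windows for genes of like reads). Of the 44, 30 stayed within the counting interval, the rounding or 1.5 times of the value reported, 14 moved and 0 reversed. The 30 include the coverage rank of the fetal candidate in Emb135, which did change. Of 6 like genes within 1.5 times of its reads 0% had lower coverage, against 11.1% of 18 within 2 times. For the log2 ratios the counting interval was that of the read shares as deposited. It was not shifted for a pseudocount or a rescaling. The log2 ratio of the fetal candidate was -11.98 with a pseudocount of 1, -12.10 after rescaling by the median ratio, -12.07 by a trimmed mean of log ratios and -12.16 with the 75th percentile. That of HBB was -4.42, -4.46, -4.42 and -4.51 under the same settings. Length weighting moved the fetal share of the pair in Emb135 to 99.44%. As a share of summed RPKM the pair held 1.02% in Emb135 and 0.00028% in 30M, against 0.521% and 0.000125% of reads. Genes called lower in 30M numbered 4167 in the main count, 2714 after scaling to the median ratio, 2589 by trimming and 1319 at 4-fold. Both globin genes were called lower under each of the 9 alternatives of the calling rule. Under these alternatives 10.3 to 35.4% of all genes tested were called lower. For the fetal candidate the choice of the gene fixed the direction in advance. No paired analysis was possible because a single library stood for each stage, and for the same reason none could be left out. Depth limits the 30M values: 25 reads of the pair leave the fetal share between 27.8 and 68.7% from counting alone.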
